A study of Mus musculus with 12 samples.

Results

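The nuclear-encoded subunits of the oxidative phosphorylation complexes were described in mouse pancreatic tumour cells named 6649c2, in cells labelled EgfrKO, Klf5KO and Smad4KO and in cells labelled WT, with 3 libraries for each genotype. The members were chosen by gene symbol and not by any measured value: symbols that begin with Nduf followed by a, b, c, s or v and a digit, the 4 Sdh genes, and symbols that begin with Uqcr, with Cox and a digit of 4 to 8, or with Atp5. This rule took 83 of the 24493 symbols of the table, 37 of complex I, 4 of complex II, 8 of complex III, 18 of complex IV and 16 of the ATP synthase. All genotypes carry the C57BL/6 strain label, and the cells were sorted from tumours grown under the skin. The labels do not say which knockout cells are 1 clone, which tumours share an animal, or what gate was used for the sort. If a knockout is 1 clone, its own differences and those of the lost gene cannot be told apart. The p-values measure the spread between these libraries, which may be technical.

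Oxidative phosphorylation takes place in the inner mitochondrial membrane. Complex I and complex II pass electrons from NADH and succinate to ubiquinone, complex III passes them to cytochrome c, and complex IV passes them to oxygen. Complexes I, III and IV pump protons, and the ATP synthase uses the gradient to make ATP. Most subunits are encoded in the nucleus and the remainder in mitochondrial DNA, and the mitochondrial genes are not analysed here. Complex II, also called succinate dehydrogenase, is encoded by nuclear genes alone and is at the same time an enzyme of the tricarboxylic acid cycle. In pancreatic cancer, cells use both glycolysis and respiration as energy sources.

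The rule by symbol is close to the subunit list but not equal to it. Ndufab1, the acyl carrier protein of complex I, and Cyc1, the cytochrome c1 of complex III, fall outside it. Ndufa4 is counted with complex I by its name, although its protein is now assigned to complex IV. Atp5s is counted with the ATP synthase by its name, although its protein is not one of the enzyme's subunits. Of the 83 members, 77 reached 1 TPM in 3 or more libraries and were tested. The other 6 were Cox4i2, Cox6a2, Cox6b2, Cox7b2, Cox8b and Cox8c, all of them isoforms of complex IV that are known from lung, muscle or testis. Their values stayed at or under 1.42 TPM in every library, and Cox8c was listed at 0 in all 12.

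Values were TPM, the share of a library's transcripts that a gene holds once transcript lengths are allowed for, so levels of different genes can be compared. Read numbers are lost in this unit and library depths are unknown. Egfr stood at 32.7% of the WT mean in EgfrKO and Smad4 at 40.7% in Smad4KO, with an exact two-sided permutation p of 0.1, the smallest that 3 libraries against 3 can give. By the limma fit described below, Egfr was also lower in Klf5KO, at a log2 fold change of -0.85 ± 0.17 (SE, adjusted p = 0.00094). In Smad4KO its value was -0.67 ± 0.17 (SE, adjusted p = 0.006). Klf5 stood at 83.7% of the WT mean in Klf5KO (exact permutation p = 0.2), so its TPM does not check that label. By limma Klf5 was lower in Klf5KO, at -0.25 ± 0.10 (SE, adjusted p = 0.041), and in EgfrKO, at -0.39 ± 0.10 (SE, adjusted p = 0.0076). After the scaling described below its Klf5KO value was -0.60 ± 0.10 (SE, adjusted p = 0.00035). The keratins and other epithelial markers of tumour cells summed to 7506 to 8017 TPM in EgfrKO, 4660 to 5216 in Klf5KO and 8007 to 9002 in Smad4KO, against 5506 to 5966 in WT. Krt8, Krt18 and Krt19 make up most of that sum. Epcam ran against it in EgfrKO, with means of 1.30 TPM in EgfrKO, 0.539 in Klf5KO and 39.5 in Smad4KO, against 13.5 in WT. Cdh1 ran against it in Klf5KO, with means of 267 in EgfrKO, 243 in Klf5KO and 351 in Smad4KO, against 166 in WT. Cldn4, too low to be tested, averaged 0.0614 TPM in EgfrKO, 0.0533 in Klf5KO and 0.0832 in Smad4KO, against 1.03 in WT. Markers of fibroblasts summed to 178 to 190.3 TPM in EgfrKO, 405 to 811 in Klf5KO and 84.5 to 116 in Smad4KO, against 89.7 to 191 in WT, and those of macrophages to 1252 to 1352 in EgfrKO, 1060 to 1690 in Klf5KO and 186 to 815 in Smad4KO, against 747 to 1481 in WT. The 186 is Smad4KO replicate 2 alone, and the other Smad4KO libraries, at 815 and 806, lay inside the WT range. Leukocyte markers summed to 179 to 187 TPM in EgfrKO, 191 to 272 in Klf5KO and 58.2 to 109 in Smad4KO, against 111 to 156 in WT. Of all these markers and of those of T, NK and endothelial cells, Ncr1 in Smad4KO was the one listed at 0 in all 3 libraries of a genotype. In such bulk samples, fewer cells of a type and less RNA per cell cannot be told apart.

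The subunit genes took the largest share of a library in Smad4KO and the smallest in Klf5KO. Together the 83 genes made up 2.23%, 2.30% and 2.31% of TPM in the EgfrKO libraries, 1.67%, 1.85% and 1.91% in Klf5KO and 2.38%, 2.50% and 2.64% in Smad4KO, against 1.90%, 1.97% and 1.99% in WT. The ranges of EgfrKO and Smad4KO lay above that of WT, and the highest Klf5KO library lay just inside the WT range. On average the sum stood at 116.5% of the WT mean in EgfrKO, 92.5% in Klf5KO and 128% in Smad4KO. Complex II had the highest ratio in Smad4KO, at 148.8% of the WT mean, followed by complex III at 136.8%, the ATP synthase at 132%, complex IV at 125.3% and complex I at 122.8%. In EgfrKO the 5 ratios lay between 111.1% for complex IV and 119.6% for the ATP synthase. In Klf5KO complex II stood at 113.7%, whereas complex IV stood at 86.2%, complex I at 90.0%, complex III at 94.8% and the ATP synthase at 98.9%. These sums are weighted towards the most abundant genes, and the genes one by one are given further on.

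**Figure D1:**
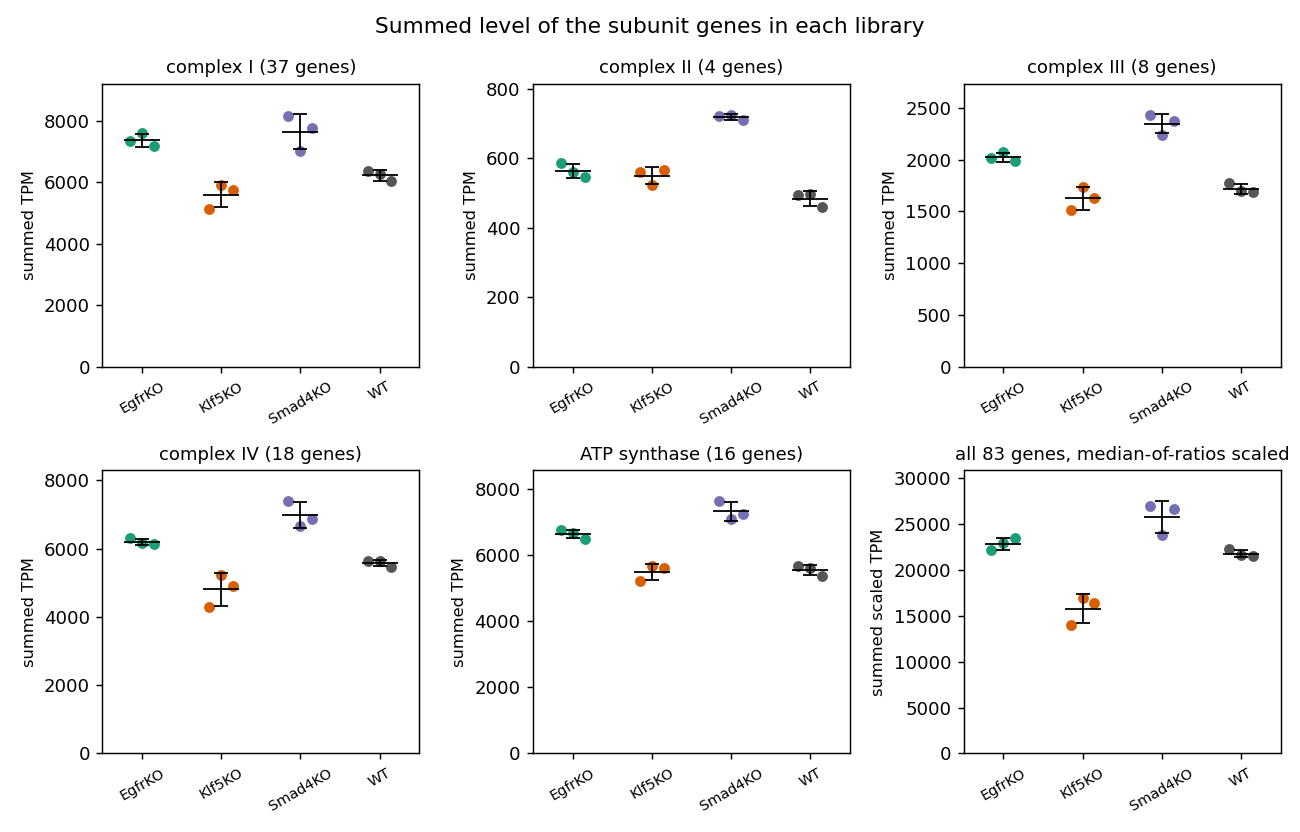
Summed TPM of the members of each complex in each library, and the sum of all 83 genes after median-of-ratios scaling (last panel). Points are libraries, horizontal bars are means and error bars are SD (n = 3). Smad4KO lies above WT in every panel, and the scaled sum of Klf5KO (13972 to 16921) lies below that of every other genotype.

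TPM is a share, and the shares of the rest of the transcriptome also moved, so each comparison was read on both a deposited and a rescaled footing. The share held by cytosolic ribosomal protein genes was 18.8% to 19.5% in EgfrKO, 12.6% to 14.0% in Klf5KO and 17.7% to 19.3% in Smad4KO, against 19.7% to 20.1% in WT. The median log2 fold change over the 13662 tested genes was 0.14 in EgfrKO, 0.31 in Klf5KO and 0.10 in Smad4KO against WT. Median-of-ratios scaling divides each library by the median ratio of its genes to their geometric mean over libraries, which brings those medians to about 0. The size factors were 0.950 to 1.04 in EgfrKO, 1.13 to 1.20 in Klf5KO and 0.939 to 0.999 in Smad4KO, against 0.886 to 0.912 in WT. Which footing is nearer to the amount of RNA per cell cannot be read from TPM, since no spiked standard is named in the labels.

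In EgfrKO against WT, as deposited, 47 of the 77 tested members were higher and 1 was lower at an adjusted p under 0.05 (limma, adjusted by Benjamini and Hochberg's method over all genes tested). Among all genes, 31.3% were higher and 12% were lower. The members' median log2 fold change was 0.24, against 0.14 for all genes. After scaling, 17 members were higher and 3 lower, against 18.2% and 22.1% of all genes, and the median was 0.09. Most of the called members were thus higher on both footings, but most of the calls ended with scaling. After scaling the count of higher members lay near the share of all genes, and the count of lower members lay below it. As deposited, all EgfrKO libraries lay above all WT libraries for 58 members and below for 2, where 40.1% and 15.9% of all genes did so. With each library of EgfrKO or WT left out in turn, 8 to 14 members were higher after scaling, with 8 when EgfrKO replicate 3 was left out and 10 when WT replicate 3 was. As deposited, epithelial markers were higher for 5 of 7 tested and lower for 1, Epcam, leukocyte markers higher for 4 of 7 and lower for 1, and T and NK cell markers higher for 5 of 8. Fibroblast markers were higher for 3 of 13 and lower for 1, macrophage markers for 0 of 10 in either direction, and Cdh5 and Pecam1, the tested endothelial markers, were higher. After scaling, leukocyte markers were higher for 1 and lower for 1, fibroblast markers for 2 each way, and the other counts were as before. The part of these in the result was not tested.

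In Smad4KO against WT, 56 of the 77 members were higher and none was lower, against 32.2% higher and 17.4% lower among all genes. At an unadjusted p under 0.05 by limma, 2 were lower, and 2 were also lower by adjusted p in a fit of the 2 groups alone. The median log2 fold change was 0.36, against 0.10 for all genes. After scaling, 44 were higher and 1 was lower, against 24.8% and 25.2% of all genes, and the median was 0.25. All 44 were among the 56 called as deposited. The Smad4KO libraries lay wholly above WT for 59 members and wholly below for 2, where 38.3% and 20.8% of all genes did so. Fibroblast markers were lower here for 4 of 13 and higher for 1, macrophage markers lower for 3 of 10, leukocyte markers lower for 2 of 7, T and NK cell markers higher for 4 of 8 and epithelial markers higher for 7 of 7 tested. Cldn4, the epithelial marker not tested, went the other way at low TPM, with all Smad4KO libraries below all WT libraries. After scaling no fibroblast marker was higher, and the other counts were as before. Without Smad4KO replicate 2, which had the low macrophage sum, 58 members were higher and 0 lower as deposited, and 49 and 0 after scaling. The part of these markers in the result was otherwise not tested.

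In Klf5KO against WT, 10 members were higher and 25 were lower, against 55.2% higher and 11.1% lower among all genes. The median log2 fold change was -0.08 while that of all genes was 0.31. After scaling, 0 were higher, also at an unadjusted p under 0.05, and 65 were lower, against 24.9% and 27.3% of all genes, and the median was -0.42, with 74 of the 77 members on the lower side. Of the 10 genes called higher as deposited, 5 were called lower after scaling, while all 25 called lower as deposited were called lower again. The Klf5KO libraries lay wholly above WT for 12 members and wholly below for 25, where 57.1% and 11.9% of all genes did so. Without replicate 1 of Klf5KO, the number called lower as deposited was 16 in place of 25. After scaling, 57 to 65 members were lower and 0 to 1 higher when each library was left out in turn. As deposited, fibroblast markers were higher in Klf5KO for 12 of 13, leukocyte markers for 7 of 7, T and NK cell markers for 6 of 8 and endothelial markers for both of those tested, and macrophage markers were called for 0 of 10. Epithelial markers were lower for 4 of 7 tested and higher for 1, Cdh1. After scaling, fibroblast markers were higher for 8 and lower for 1, leukocyte markers higher for 1, Ptprc, and epithelial markers lower for 6 and higher for 1, with the T, NK and endothelial counts as before. The part of these in the result was not tested.

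A pair of other scalings fell between these footings for Klf5KO. Under quantile normalization, EgfrKO had 37 members higher and 2 lower (18.4% and 20.2% of all genes), Klf5KO had 4 and 41 (27.0% and 23.1%), and Smad4KO had 50 and 0 (23.2% and 25.7%), against WT. With TPM rescaled without ribosomal protein genes and small RNA models, EgfrKO had 44 and 2 (30.4% and 14.2%), Klf5KO had 5 and 40 (47.7% and 14.4%), and Smad4KO had 56 and 0 (32.8% and 19.5%). On all of these footings more members were called higher than lower in EgfrKO and Smad4KO, and more lower than higher in Klf5KO.

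**Figure D2:**
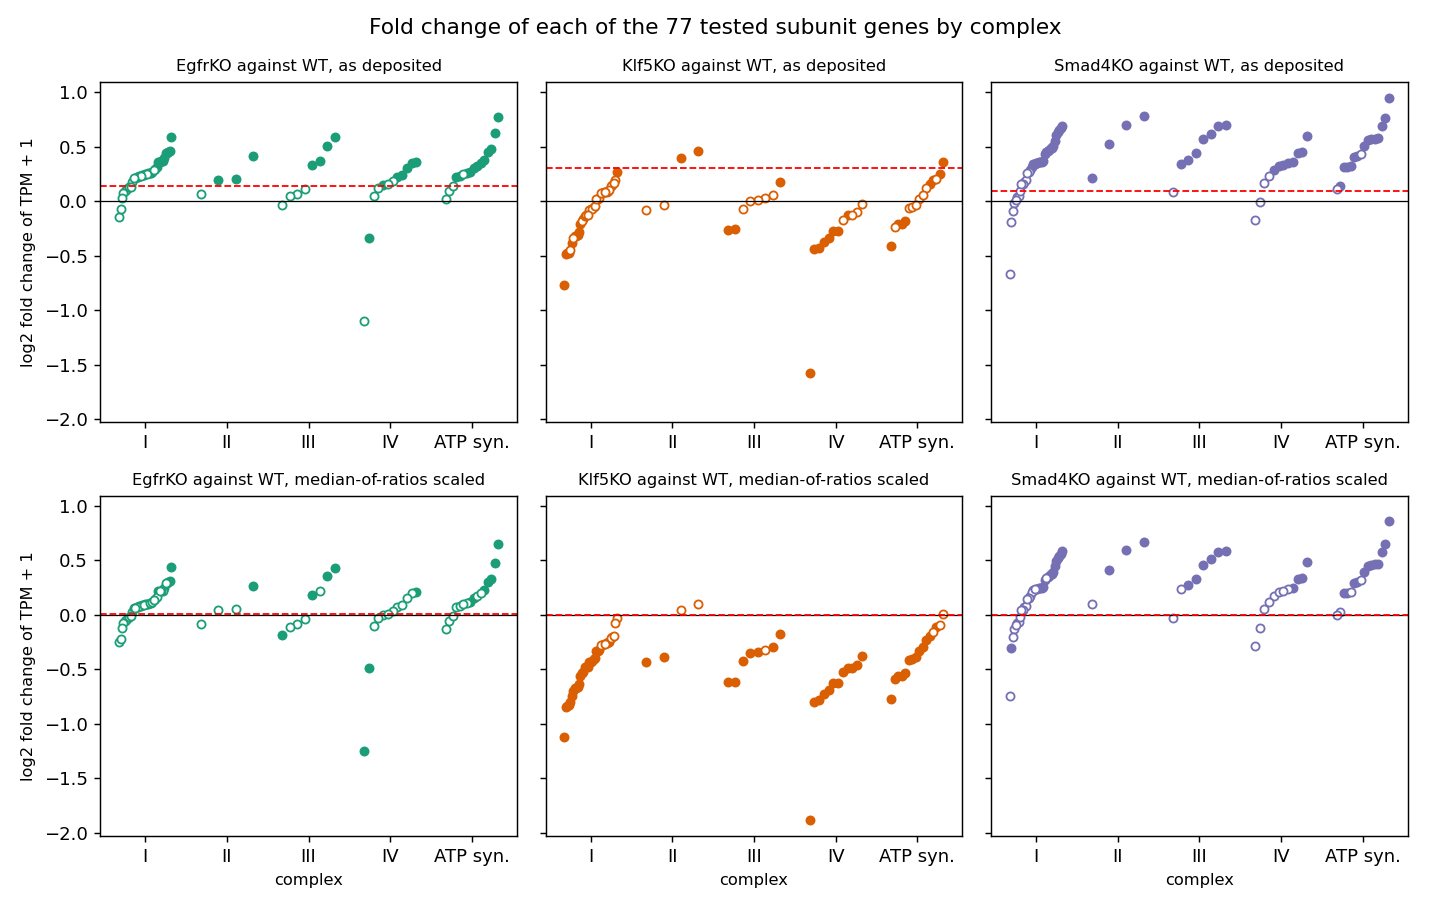
Log2 fold change of TPM + 1 against WT for each of the 77 tested members, by complex, as deposited (top) and after median-of-ratios scaling (bottom). Filled points passed an adjusted p under 0.05, open points did not, and the dashed red line is the median of all 13662 genes. Most points of Smad4KO lie above that line on both footings, and most of Klf5KO lie below it.

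Complex I takes electrons from NADH through a chain of iron-sulphur clusters. Its 7 nuclear-encoded core subunits do the catalysis, and the remaining 30 members counted here are supernumerary subunits that surround the core, together with Ndufa4 and its paralogue. In Smad4KO all 7 core genes were higher as deposited and 6 after scaling, and 16 of the other 30 were higher as deposited. In EgfrKO 6 core genes and 16 others were higher, and 2 core genes and 3 others after scaling. In Klf5KO as deposited, 3 core genes were higher and none was lower, while 0 of the other 30 were higher and 11 were lower. After scaling, 4 core genes and 27 others were lower in Klf5KO and 0 of either set were higher. The core genes thus had the higher fold changes of the 2 sets in Klf5KO, with medians of 0.10 and -0.13 as deposited, and no test of that difference was made. Among all genes as deposited, 31.3% were higher and 12% lower in EgfrKO, 55.2% and 11.1% in Klf5KO, and 32.2% and 17.4% in Smad4KO. After scaling these shares were 18.2% and 22.1%, 24.9% and 27.3%, and 24.8% and 25.2%. The 3 of 7 core genes higher in Klf5KO as deposited lay below the share of all genes. The counts higher in EgfrKO after scaling lay near or below it.

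Ndufs1 (chr1:63143596-63176833 in GRCm38) encodes the largest iron-sulphur subunit of the core. Its values were 42.8, 38.6 and 39.6 TPM in EgfrKO, 42.7, 38.3 and 41.0 in Klf5KO and 52.0, 56.5 and 49.4 in Smad4KO, against 32.6, 35.8 and 32.4 in WT. All libraries of each knockout lay above all WT libraries, and Smad4KO lay above the other knockouts. Against WT, the log2 fold change came to 0.26 ± 0.07 (SE, adjusted p = 0.011) in EgfrKO, 0.27 ± 0.07 (SE, adjusted p = 0.0047) in Klf5KO and 0.63 ± 0.07 (SE, adjusted p = 1.6e-05) in Smad4KO. After scaling it was 0.52 ± 0.05 (SE, adjusted p = 9.3e-06) in Smad4KO, 0.11 in EgfrKO and -0.08 in Klf5KO, where the calls of both ended. Between the knockouts, EgfrKO was below Smad4KO by a log2 difference of -0.37 ± 0.07 (SE, adjusted p = 0.0016).

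Ndufv2, an iron-sulphur protein beside the NADH site, had 85.0, 84.4 and 89.3 TPM in EgfrKO, 74.3, 76.9 and 71.3 in Klf5KO and 90.2, 83.0 and 86.4 in Smad4KO, against 66.2, 68.4 and 65.9 in WT. Every knockout library exceeded every WT library. By limma, the log2 fold change was 0.36 ± 0.05 (SE, adjusted p = 0.00013) in EgfrKO and 0.37 ± 0.05 (SE, adjusted p = 6.5e-05) in Smad4KO. In Klf5KO it was 0.15 ± 0.05 (SE, adjusted p = 0.017) as deposited and -0.20 ± 0.06 (SE, adjusted p = 0.017) after scaling, so its direction there depended on the footing. The Klf5KO call as deposited was lost without Klf5KO replicate 2 (limma, adjusted p = 0.0592) or WT replicate 3.

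Ndufa8, a supernumerary subunit on the intermembrane side (chr2:36036326-36049406), showed the largest decrease of complex I in Klf5KO. It had 131, 129 and 135 TPM in EgfrKO, 65.2, 58.4 and 74.4 in Klf5KO and 170.3, 145 and 160.0 in Smad4KO, against 113, 117 and 109 in WT. The Klf5KO libraries lay far below all others, and those of EgfrKO and Smad4KO lay above WT. The log2 fold change in Klf5KO was -0.77 ± 0.08 (SE, adjusted p = 1.0e-05) as deposited and -1.12 ± 0.09 (SE, adjusted p = 3.0e-06) after scaling. In Smad4KO it was 0.48 ± 0.08 (SE, adjusted p = 0.00044) and 0.37 ± 0.09 (SE, adjusted p = 0.0058) on the same footings. The EgfrKO value of 0.22 ± 0.08 (SE, adjusted p = 0.044) did not pass after scaling, nor when any 1 library of EgfrKO or WT was left out. This gene shared no 31-base stretch with another annotated gene.

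Ndufa5, a supernumerary subunit of the arm that holds the iron-sulphur clusters, had 334, 331 and 299 TPM in EgfrKO, 192, 224 and 193 in Klf5KO and 395, 356 and 367 in Smad4KO, against 231, 235 and 236 in WT. EgfrKO and Smad4KO lay above WT and Klf5KO below it, without overlap. On the log2 scale the fold change was 0.46 ± 0.07 (SE, adjusted p = 0.00026) in EgfrKO, -0.21 ± 0.07 (SE, adjusted p = 0.015) in Klf5KO and 0.67 ± 0.07 (SE, adjusted p = 7.5e-06) in Smad4KO. After scaling the same values were 0.31 ± 0.07 (SE, adjusted p = 0.0056), -0.56 ± 0.07 (SE, adjusted p = 6.9e-05) and 0.56 ± 0.07 (SE, adjusted p = 6.4e-05) in that order, so the call and its direction held for each genotype. As deposited, the Klf5KO call was lost without Klf5KO replicate 1 (limma, adjusted p = 0.0589) or 3 (adjusted p = 0.0621).

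Ndufc1, a small membrane subunit, had 201, 195 and 202 TPM in EgfrKO, 129, 143 and 114 in Klf5KO and 229, 197 and 218 in Smad4KO, against 137, 137 and 123 in WT. EgfrKO and Smad4KO lay above WT, while Klf5KO overlapped WT. Its log2 fold change was 0.59 ± 0.08 (SE, adjusted p = 0.00018) in EgfrKO and 0.69 ± 0.08 (SE, adjusted p = 2.9e-05) in Smad4KO, the largest called increases of complex I in each as deposited. Not every complex I gene followed. Ndufa6 averaged 423 ± 17.2 TPM in EgfrKO, 343 ± 49.4 in Klf5KO and 389.8 ± 18.7 in Smad4KO, against 446 ± 19.4 in WT (SD, n = 3), with a log2 fold change of -0.39 ± 0.09 (SE, adjusted p = 0.0023) in Klf5KO and -0.19 ± 0.09 (SE, adjusted p = 0.09) in Smad4KO. After scaling Ndufa6 was the member called lower in Smad4KO, at -0.31 ± 0.12 (SE, adjusted p = 0.046). Ndufa2 averaged 309 ± 34.9 TPM in EgfrKO, 205 ± 30.5 in Klf5KO and 296 ± 28.2 in Smad4KO, against 287 ± 8.21 in WT (SD, n = 3), and its log2 fold change in Klf5KO was -0.49 ± 0.11 (SE, adjusted p = 0.0022).

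Complex II has 4 subunits, and they did not share 1 order over the genotypes. Sdha, the flavoprotein that oxidizes succinate (chr13:74322254-74350280), had 121, 116 and 112 TPM in EgfrKO, 154, 135 and 150.0 in Klf5KO and 190.5, 202 and 183 in Smad4KO, against 110.3, 114 and 109 in WT. Smad4KO was highest and Klf5KO second, with no overlap with WT, and EgfrKO overlapped WT. Against WT, the log2 fold change came to 0.78 ± 0.06 (SE, adjusted p = 6.8e-07) in Smad4KO as deposited and 0.67 ± 0.04 (SE, adjusted p = 2.3e-07) after scaling. In Klf5KO it was 0.39 ± 0.06 (SE, adjusted p = 9.8e-05) as deposited, and after scaling it did not pass, at 0.04 ± 0.04 (SE, adjusted p = 0.41). EgfrKO was below Smad4KO by a log2 difference of -0.72 ± 0.06 (SE, adjusted p = 3.5e-06).

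Sdhb, the iron-sulphur subunit beside Sdha (chr4:140961203-140979193), had 147, 147 and 138 TPM in EgfrKO, 153, 141 and 151 in Klf5KO and 128, 122 and 126 in Smad4KO, against 117, 107 and 99.9 in WT. EgfrKO and Klf5KO were highest here, and Smad4KO stood between them and WT. The log2 fold change against WT was 0.41 ± 0.06 (SE, adjusted p = 0.00025) in EgfrKO, 0.45 ± 0.06 (SE, adjusted p = 5.0e-05) in Klf5KO and 0.21 ± 0.06 (SE, adjusted p = 0.012) in Smad4KO. After scaling the EgfrKO value was 0.26 ± 0.06 (SE, adjusted p = 0.0036), and the other calls ended. The Smad4KO call as deposited also ended without WT replicate 3. Sdhb was higher in EgfrKO than in Smad4KO, by a log2 difference of 0.20 ± 0.06 (SE, adjusted p = 0.024), and this also passed after scaling, at 0.16 ± 0.06 (SE, adjusted p = 0.046). Sdha and Sdhb form 1 enzyme head, and their transcripts ran in opposite order between those knockouts.

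Sdhc and Sdhd anchor that head in the membrane. Sdhc had 177, 174 and 168 TPM in EgfrKO, 150.1, 145 and 147 in Klf5KO and 221, 215 and 218 in Smad4KO, against 158, 155 and 141 in WT. Sdhd had 139.7, 123 and 128 TPM in EgfrKO, 102, 101 and 118 in Klf5KO and 182, 187 and 182 in Smad4KO, against 109.6, 119 and 109.6 in WT. Both were highest in Smad4KO, with no overlap with any other genotype, and both overlapped WT in Klf5KO. The log2 fold change in Smad4KO was 0.53 ± 0.05 (SE, adjusted p = 3.2e-06) for Sdhc and 0.70 ± 0.07 (SE, adjusted p = 5.6e-06) for Sdhd. After scaling both passed in Smad4KO, and both were lower in Klf5KO, at -0.39 ± 0.05 (SE, adjusted p = 3.9e-05) for Sdhc and -0.43 ± 0.07 (SE, adjusted p = 0.00038) for Sdhd.

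In complex III, which passes electrons from ubiquinol to cytochrome c, 7 of 8 genes were higher in Smad4KO as deposited and 6 after scaling. EgfrKO had 4 higher as deposited, and 3 higher and 1 lower after scaling. Klf5KO had 1 higher and 2 lower as deposited, and 7 lower after scaling. Of all genes as deposited, 31.3% were higher and 12% lower in EgfrKO, 55.2% and 11.1% in Klf5KO, and 32.2% and 17.4% in Smad4KO. After scaling the shares were 18.2% and 22.1%, 24.9% and 27.3%, and 24.8% and 25.2%. Uqcrc1, a core protein that does not carry a redox centre, had 174, 159.7 and 159 TPM in EgfrKO, 146, 147 and 148 in Klf5KO and 206, 218 and 209 in Smad4KO, against 132, 134 and 126 in WT. All knockouts lay above WT as deposited. By limma, the log2 fold change was 0.69 ± 0.05 (SE, adjusted p = 3.7e-07) in Smad4KO and 0.33 ± 0.05 (SE, adjusted p = 0.00021) in EgfrKO. In Klf5KO it was 0.17 ± 0.05 (SE, adjusted p = 0.0063) as deposited and -0.18 ± 0.04 (SE, adjusted p = 0.0042) after scaling.

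Uqcr10, a small subunit with 408, 452 and 439 TPM in EgfrKO, 240.0, 340.4 and 310.1 in Klf5KO and 469, 451 and 485 in Smad4KO, against 313, 282 and 272 in WT, was above WT in EgfrKO and Smad4KO and overlapped WT in Klf5KO. The size of the difference on the log2 scale was 0.58 ± 0.11 (SE, adjusted p = 0.0011) in EgfrKO and 0.70 ± 0.11 (SE, adjusted p = 0.0002) in Smad4KO. The Rieske iron-sulphur protein, encoded by Uqcrfs1, behaved otherwise in EgfrKO. It had 129, 124 and 123 TPM in EgfrKO, 131, 134 and 137 in Klf5KO and 194, 205 and 196 in Smad4KO, against 132, 125 and 129.7 in WT. Only its Smad4KO libraries stood clear of WT, with a log2 fold change of 0.62 ± 0.04 (SE, adjusted p = 3.1e-07), and after scaling it was the complex III gene called lower in EgfrKO, at -0.19 ± 0.05 (SE, adjusted p = 0.0082). Uqcrfs1 falls outside the naming rule and was chosen after its values were seen. Uqcrh, the hinge protein, had 368, 419 and 385 TPM in Klf5KO, against 485, 453 and 463 in WT. The groups did not overlap, and the log2 fold change was -0.26 ± 0.06 (SE, adjusted p = 0.0015).

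Small subunits of complex III complete the named values of that complex. Uqcrb, which helps to bind ubiquinone, averaged 324 ± 21.3 TPM in EgfrKO, 312 ± 35.5 in Klf5KO and 458 ± 22.7 in Smad4KO, against 309 ± 18.0 in WT (SD, n = 3). It was higher in Smad4KO, at 0.57 ± 0.08 (SE, adjusted p = 0.00012), and in Klf5KO it was 0.01 as deposited and -0.34 ± 0.09 (SE, adjusted p = 0.0074) after scaling. Uqcrq averaged 79.2 ± 1.63 TPM in EgfrKO, 52.7 ± 4.05 in Klf5KO and 70.9 ± 8.60 in Smad4KO, against 55.4 ± 1.72 in WT (SD, n = 3), with log2 fold changes of 0.51 ± 0.08 (SE, adjusted p = 0.00054) in EgfrKO and 0.34 ± 0.08 (SE, adjusted p = 0.0047) in Smad4KO, where the call ended after scaling (adjusted p = 0.0791). Uqcr11 averaged 329 ± 8.77 TPM in EgfrKO, 212 ± 1.07 in Klf5KO and 334 ± 43.4 in Smad4KO, against 255 ± 11.5 in WT (SD, n = 3) and was higher in EgfrKO and Smad4KO and lower in Klf5KO as deposited, the last at -0.26 ± 0.08 (SE, adjusted p = 0.0095). Its EgfrKO call ended after scaling, at 0.22 ± 0.09 (SE, adjusted p = 0.067).

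Complex IV reduces oxygen to water, and its nuclear-encoded subunits surround a catalytic core made in the mitochondrion. In Klf5KO 8 of its 12 tested genes were lower and none was higher as deposited, and all 12 were lower after scaling. Smad4KO had 8 higher as deposited and 4 after scaling. EgfrKO had 6 higher and 1 lower as deposited, and 1 higher and 2 lower after scaling. Of all genes as deposited, 55.2% were higher and 11.1% lower in Klf5KO, 32.2% and 17.4% in Smad4KO, and 31.3% and 12% in EgfrKO. After scaling the shares were 24.9% and 27.3%, 24.8% and 25.2%, and 18.2% and 22.1%. The EgfrKO counts after scaling did not exceed these shares. Cox5b, a zinc-binding subunit (chr1:36691449-36693681), had 468, 469.8 and 442 TPM in EgfrKO, 239.7, 297 and 269.8 in Klf5KO and 610.4, 492 and 548 in Smad4KO, against 340.2, 379.9 and 365 in WT. EgfrKO and Smad4KO lay above WT and Klf5KO below it. On the log2 scale the fold change was 0.35 ± 0.09 (SE, adjusted p = 0.0077) in EgfrKO, -0.43 ± 0.09 (SE, adjusted p = 0.001) in Klf5KO and 0.60 ± 0.09 (SE, adjusted p = 0.00015) in Smad4KO, and the EgfrKO call ended after scaling.

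Cox8a had the highest mean TPM of all members. It averaged 1159 ± 15.3 TPM in EgfrKO, 903 ± 116 in Klf5KO and 1333 ± 55.4 in Smad4KO, against 983 ± 14.6 in WT (SD, n = 3), and its log2 fold change was 0.44 ± 0.07 (SE, adjusted p = 0.0005) in Smad4KO. Its EgfrKO value of 0.24 ± 0.07 (SE, adjusted p = 0.024) did not pass after scaling, nor when any 1 library of EgfrKO or WT other than WT replicate 2 was left out. Cox4i1, which binds ATP as a regulatory subunit, averaged 931 ± 21.3 TPM in EgfrKO, 767 ± 52.1 in Klf5KO and 1019 ± 44.7 in Smad4KO, against 838 ± 14.4 in WT (SD, n = 3). Its log2 fold change was 0.15 ± 0.05 (SE, adjusted p = 0.036) in EgfrKO, -0.13 ± 0.05 (SE, adjusted p = 0.047) in Klf5KO and 0.28 ± 0.05 (SE, adjusted p = 0.00096) in Smad4KO, and after scaling the Klf5KO call alone passed. Its EgfrKO call was lost under 13 of 16 alternatives, the removal of any 1 library of EgfrKO or WT among them, and its Klf5KO call under 8 of 16, with adjusted p up to 0.178 without Klf5KO replicate 1. Cox5a had 291, 268 and 285 TPM in EgfrKO, 208, 219 and 218 in Klf5KO and 309, 293 and 296 in Smad4KO, against 226, 230.1 and 203 in WT. It was the complex IV gene that passed as higher in EgfrKO after scaling, at 0.21 ± 0.06 (SE, adjusted p = 0.023). Ndufa4, counted above with complex I, averaged 1014 ± 11.2 TPM in EgfrKO, 757 ± 42.3 in Klf5KO and 1092 ± 59.4 in Smad4KO, against 852 ± 67.1 in WT (SD, n = 3), with log2 fold changes of 0.25 ± 0.06 (SE, adjusted p = 0.0076) in EgfrKO, -0.17 ± 0.06 (SE, adjusted p = 0.034) in Klf5KO and 0.36 ± 0.06 (SE, adjusted p = 0.00063) in Smad4KO. After scaling the EgfrKO call ended, at 0.10 ± 0.08 (SE, adjusted p = 0.34). The Klf5KO call of Ndufa4 was lost without Klf5KO replicate 1 or 3, or WT replicate 1 or 2, with adjusted p of 0.0652 to 0.141 by limma.

 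Cox7c, a small structural subunit, was the 1 member called lower in EgfrKO. It had 665, 603 and 637 TPM in EgfrKO, 481, 670.5 and 638 in Klf5KO and 1084, 905 and 852 in Smad4KO, against 804, 790.0 and 815 in WT. EgfrKO and Klf5KO lay below WT, and Smad4KO lay above it. Its log2 fold change was -0.34 ± 0.11 (SE, adjusted p = 0.032) in EgfrKO and -0.44 ± 0.11 (SE, adjusted p = 0.005) in Klf5KO, and the Smad4KO value of 0.23 ± 0.11 (SE, adjusted p = 0.12) did not pass. Leaving out any 1 library of EgfrKO or WT ended the EgfrKO call as deposited, with adjusted p of up to 0.10 by limma. Of its 31-base stretches, 24.6% also occur in another gene of the table, mostly Gm10012, so its level is uncertain.

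Complex IV exchanges some subunits between tissues. The tissue isoforms Cox4i2, Cox6a2, Cox6b2, Cox7b2, Cox8b and Cox8c were near 0 in all genotypes, so Cox4i1, Cox6a1, Cox6b1, Cox7b and Cox8a accounted for nearly all transcripts of those pairs. Cox7a1, the isoform of heart and skeletal muscle, had 14.1, 8.68 and 2.41 TPM in EgfrKO, 4.80, 7.02 and 2.98 in Klf5KO and 16.4, 13.7 and 12.2 in Smad4KO, against 15.4, 18.2 and 14.5 in WT. All Klf5KO and EgfrKO libraries were below WT, the EgfrKO libraries spread widely, and Smad4KO overlapped WT. Against WT, the log2 fold change came to -1.57 ± 0.43 (SE, adjusted p = 0.0067) in Klf5KO and -1.10 ± 0.43 (SE, adjusted p = 0.057) in EgfrKO, where the call was made after scaling, at -1.25 ± 0.42 (SE, adjusted p = 0.034). Cox7a2, the form of most other tissues, averaged 143 ± 5.37 TPM in EgfrKO, 99.4 ± 16.0 in Klf5KO and 160.4 ± 11.9 in Smad4KO, against 128 ± 3.46 in WT (SD, n = 3). Its log2 fold change in Klf5KO was -0.38 ± 0.09 (SE, adjusted p = 0.0042). Cox7a2l, which helps complexes III and IV to associate, had 381, 385 and 359 TPM in EgfrKO, 282, 291 and 289 in Klf5KO and 359, 361 and 366 in Smad4KO, against 351, 366 and 373 in WT. The Klf5KO libraries lay below all others, with a log2 fold change of -0.34 ± 0.04 (SE, adjusted p = 2.4e-05), while EgfrKO and Smad4KO overlapped WT.

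**Figure D3:**
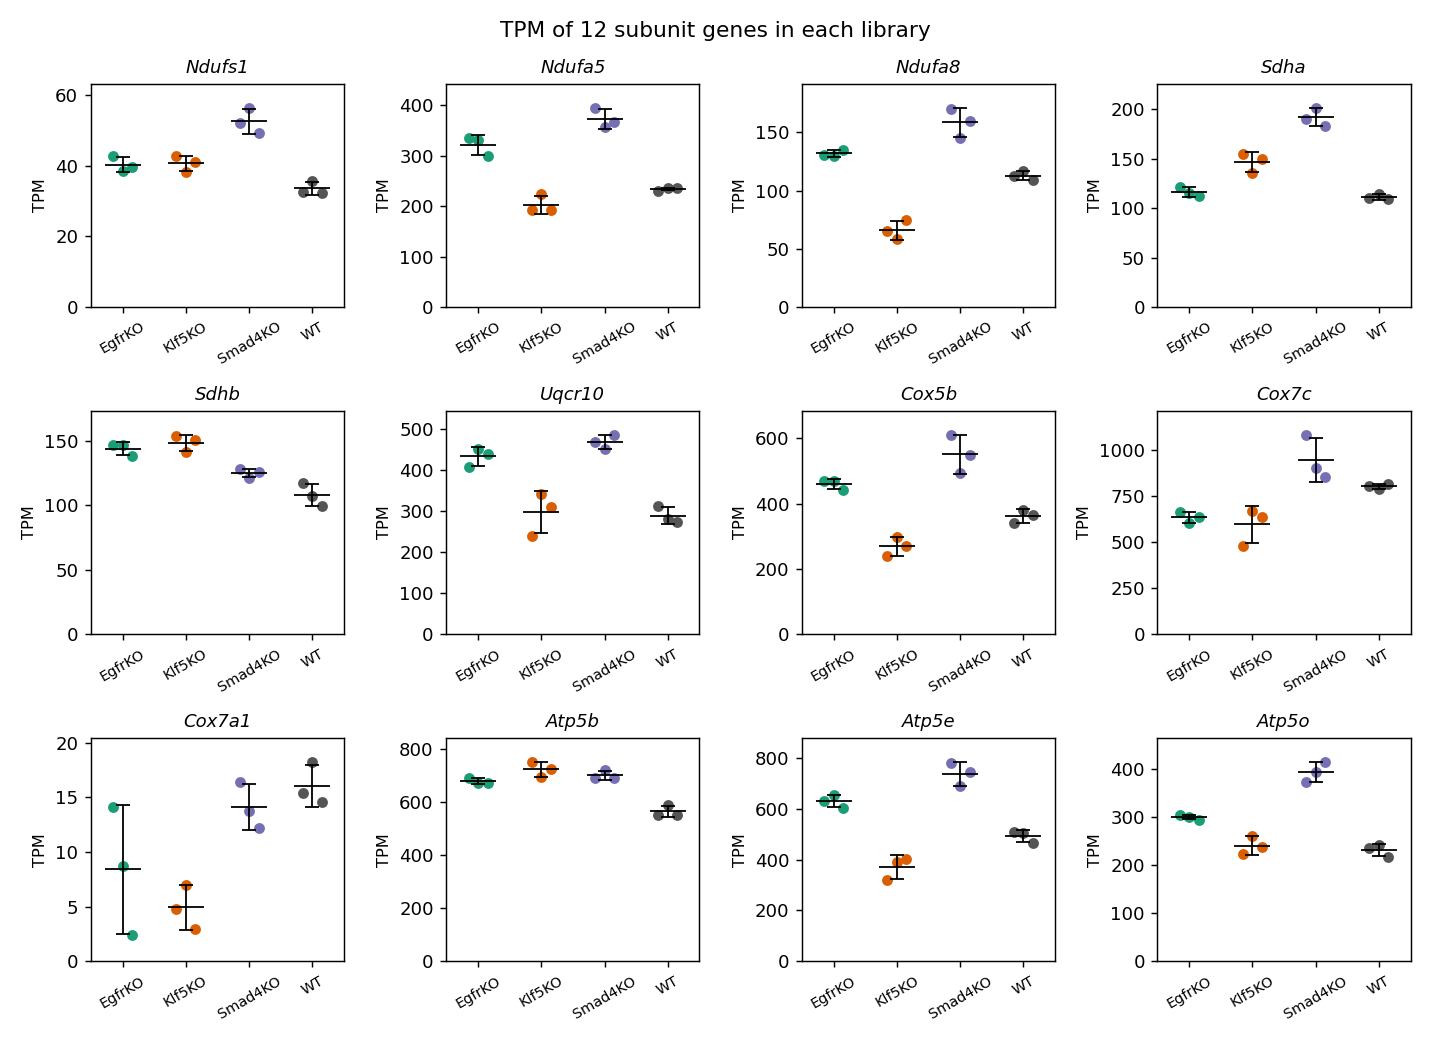
TPM of 12 members in each library. Points are libraries, horizontal bars are means and error bars are SD (n = 3). Sdha is highest in Smad4KO while Sdhb is highest in EgfrKO and Klf5KO, Ndufa8, Cox5b and Atp5e lie below WT in Klf5KO alone, and Atp5b lies above WT in every knockout.

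The ATP synthase joins a catalytic F1 head to a membrane rotor by stalks. In Smad4KO 14 of its 16 genes were higher as deposited and 12 after scaling, and none was lower. In EgfrKO 12 were higher as deposited and 7 after scaling, and none was lower. Klf5KO had 4 higher and 4 lower as deposited, and 13 lower after scaling. Of all genes as deposited, 32.2% were higher and 17.4% lower in Smad4KO, 31.3% and 12% in EgfrKO, and 55.2% and 11.1% in Klf5KO. After scaling the shares were 24.8% and 25.2%, 18.2% and 22.1%, and 24.9% and 27.3%. The 4 of 16 higher in Klf5KO as deposited lay below the share of all genes. Of the 5 genes for the F1 part in Klf5KO, Atp5a1, Atp5b and Atp5d, which encode the alpha, beta and delta subunits, were higher as deposited. Atp5e, the epsilon subunit, was lower, and Atp5c1, the gamma subunit, was not called.

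Atp5b, the catalytic subunit (chr10:128083273-128090391), had 691, 669.9 and 672 TPM in EgfrKO, 749, 694 and 724 in Klf5KO and 689, 719.6 and 689 in Smad4KO, against 551, 589 and 551 in WT. All knockouts lay above WT, with log2 fold changes of 0.27 ± 0.04 (SE, adjusted p = 0.00055) in EgfrKO, 0.36 ± 0.04 (SE, adjusted p = 2.7e-05) in Klf5KO and 0.31 ± 0.04 (SE, adjusted p = 0.00011) in Smad4KO. After scaling the Klf5KO value was 0.00 ± 0.04 (SE, adjusted p = 0.96). Atp5a1, its partner in the head, had 641, 617 and 613 TPM in EgfrKO, 727, 656 and 696 in Klf5KO and 626, 657 and 646 in Smad4KO, against 574, 594 and 586 in WT. The log2 fold change in Klf5KO was 0.24 ± 0.04 (SE, adjusted p = 0.00048) as deposited and -0.11 ± 0.04 (SE, adjusted p = 0.049) after scaling, so the direction turned. Atp5e, on the central stalk below the head, had 631, 653 and 603 TPM in EgfrKO, 319, 390.1 and 403 in Klf5KO and 779, 687 and 743 in Smad4KO, against 508, 504 and 466 in WT. Klf5KO lay below WT while EgfrKO and Smad4KO lay above, with log2 fold changes of -0.42 ± 0.08 (SE, adjusted p = 0.00088) in Klf5KO, 0.35 ± 0.08 (SE, adjusted p = 0.0052) in EgfrKO and 0.58 ± 0.08 (SE, adjusted p = 0.00013) in Smad4KO. The EgfrKO call of Atp5e ended after scaling.

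Atp5o, the stalk subunit that holds the head to the membrane part, had 305, 301 and 296 TPM in EgfrKO, 225, 262 and 237 in Klf5KO and 374, 395 and 415 in Smad4KO, against 237, 243 and 217 in WT. It was highest in Smad4KO, with a log2 fold change of 0.76 ± 0.06 (SE, adjusted p = 1.7e-06), and 0.37 ± 0.06 (SE, adjusted p = 0.00073) in EgfrKO. Of the 31-base stretches of Atp5o, 49.25% also occur in another annotated gene, as do 40.22% of those of Atp5g2, so both levels are uncertain. Atp5g1, Atp5g2 and Atp5g3 encode the same mature rotor subunit with different import sequences. Atp5g1 had 188, 178 and 173 TPM in EgfrKO, 121, 137 and 143 in Klf5KO and 183, 161 and 175 in Smad4KO, against 118, 126 and 105 in WT. EgfrKO and Smad4KO lay above WT, at log2 fold changes of 0.63 ± 0.08 (SE, adjusted p = 9.3e-05) in EgfrKO and 0.57 ± 0.08 (SE, adjusted p = 0.0001) in Smad4KO. Atp5g2, the most abundant of the 3, averaged 702 ± 23.6 TPM in EgfrKO, 598 ± 38.8 in Klf5KO and 745 ± 32.9 in Smad4KO, against 691 ± 33.3 in WT (SD, n = 3) and was lower in Klf5KO, at -0.21 ± 0.06 (SE, adjusted p = 0.0069), and not called in EgfrKO or Smad4KO. Atp5g3 averaged 451 ± 11.1 TPM in EgfrKO, 340.3 ± 12.3 in Klf5KO and 573 ± 22.3 in Smad4KO, against 387 ± 8.21 in WT (SD, n = 3). Atp5g2 and Atp5g3 had their lowest means in Klf5KO, whereas Atp5g1 had its lowest mean in WT.

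The low members stood apart in level. Atp5s, which is not a subunit, had 8.15, 8.62 and 8.84 TPM in EgfrKO, 7.22, 5.26 and 4.17 in Klf5KO and 10.9, 9.55 and 8.92 in Smad4KO, against 4.43, 4.93 and 4.41 in WT, with log2 fold changes of 0.77 ± 0.14 (SE, adjusted p = 0.0014) in EgfrKO and 0.95 ± 0.14 (SE, adjusted p = 0.00021) in Smad4KO. Ndufa4l2, a paralogue of Ndufa4 that hypoxia is known to induce, had 3.29, 0.995 and 0.448 TPM in EgfrKO, 2.11, 1.99 and 1.70 in Klf5KO and 0.473, 0.653 and 0.730 in Smad4KO, against 1.29, 1.88 and 1.55 in WT. None of its contrasts against WT passed in the main fit, and the EgfrKO libraries spread over the range of the others. All Smad4KO libraries lay below all WT libraries, at a log2 fold change of -0.67. Under 1 of 15 alternatives Smad4KO passed as lower (limma, adjusted p = 0.00765). EgfrKO also passed as lower under 1 of 15 (limma, adjusted p = 0.0251). The remaining 74 tested members had means over the 12 libraries of 21.6 to 1095 TPM. Across these, the median of the means was 155 TPM for complex I, 137 for complex II, 223 for complex III, 476 for complex IV and 424 for the ATP synthase.

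Fold changes in Klf5KO were also set against transcript length. Lengths were taken from the transcript with the longest coding part in GENCODE vM21. Of the 29 tested members under 700 bases, 0 were higher in Klf5KO and 13 were lower as deposited, with a median log2 fold change of -0.21. Of the 24 members from 700 to under 1200 bases, 1 was higher and 10 were lower, with a median of -0.13. Of the 24 members of 1200 bases and over, 9 were higher and 2 were lower, with a median of 0.07. All other tested genes of the same classes had medians of -0.14 (275 genes), 0.03 (994) and 0.35 (11068), ribosomal protein genes left out. Of these other genes, 13.5% were higher and 31.6% lower in the shortest class, 25.7% and 22.1% in the middle class, and 63.1% and 9.03% in the longest. The members' median lay below that of the other genes in each class. Spearman's rho between fold change and length in Klf5KO was 0.53 across 77 members and 0.35 across 12417 other genes, as a description, since genes share libraries and are not independent. That set of 12417 is larger than the classes of other genes together, so the rho and the class medians are not from the same set.

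In EgfrKO the members' medians in the same classes were 0.24, 0.26 and 0.25, against 0.07, 0.20 and 0.13 for the other genes. In Smad4KO they were 0.32, 0.40 and 0.46, against 0.01, 0.11 and 0.10. The rho was 0.11 in EgfrKO and 0.31 in Smad4KO over the members, against -0.11 and -0.04 over the 12417 other genes. The length of transcripts thus went with fold change in Klf5KO among members and other genes alike, and its part in the difference between the core and other genes of complex I was not tested.

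**Figure D4:**
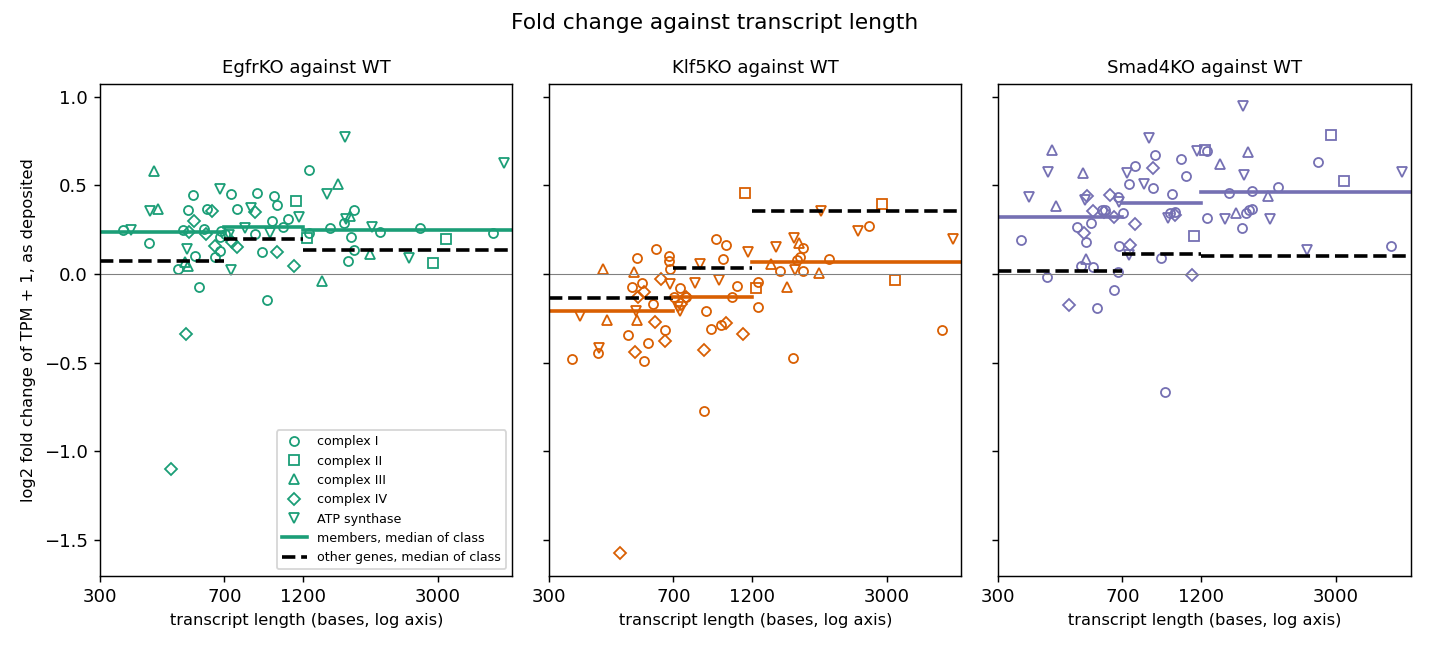
Log2 fold change of TPM + 1 against WT, as deposited, over transcript length for the 77 tested members, with symbols for the complexes. Coloured lines are the members' medians in 3 length classes and dashed black lines those of the other tested genes. In Klf5KO both sets of lines climb with length, from -0.21 to 0.07 for the members and from -0.14 to 0.35 for the other genes.

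The knockouts were also compared with each other, in contrasts whose fold changes as deposited do not use the WT libraries. The WT libraries do enter the spread behind the p-values, from the same fit, and the scaling. EgfrKO was above Klf5KO for 62 of 77 members and below for 2, against 14.7% and 40.5% of all genes. After scaling the counts were 70 and 1, against 26.4% and 25.6%. Klf5KO was above Smad4KO for 3 members and below for 66, against 45.5% and 18.3% of all genes, and after scaling for 0 and 74, against 29.7% and 30.8%. EgfrKO was above Smad4KO for 2 members, Atp5d and Sdhb, and below for 26, against 18.7% and 14.5%. After scaling these counts were 1 and 26, against 17.1% and 19.0%. The 26 held 11 complex I genes, 3 of complex II, 4 of complex III, 2 of complex IV and 6 of the ATP synthase. Between Klf5KO and Smad4KO, the log2 difference was -1.40 ± 0.43 (SE, adjusted p = 0.013) for Cox7a1, -1.25 ± 0.08 (SE, adjusted p = 1.4e-07) for Ndufa8 and -1.03 ± 0.09 (SE, adjusted p = 1.2e-06) for Cox5b, the widest of all members. These contrasts share libraries with each other and with those against WT.

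Genes outside the symbol rule that serve the same process were counted in the same fit. Of 15 complex I assembly factors, 9 were higher and 1 lower in EgfrKO, 10 and 1 in Klf5KO, and 10 and 0 in Smad4KO as deposited. After scaling the counts were 6 and 1, 1 and 2, and 8 and 1 in the same order. Over all genes as deposited, 31.3% were higher and 12% lower in EgfrKO, 55.2% and 11.1% in Klf5KO, and 32.2% and 17.4% in Smad4KO, and after scaling 18.2% and 22.1%, 24.9% and 27.3%, and 24.8% and 25.2%. The Klf5KO counts of higher assembly factors as deposited therefore lay near the share of all genes. Of 31 tested assembly factors of the other complexes, 15 and 0, 15 and 5, and 13 and 0 were higher and lower as deposited, and 5 and 0, 3 and 10, and 10 and 0 after scaling. A list of 6 more genes held Cycs, Cyc1, Ndufab1, Usmg5, Atpif1 and Minos1, and the last 2 are not subunits of these complexes. Of the 6, 3 and 0, 1 and 2, and 4 and 0 were higher and lower as deposited, and 0 and 0, 0 and 5, and 2 and 0 after scaling. Atpif1 was among those higher in EgfrKO and Smad4KO as deposited, and Minos1 among those lower in Klf5KO. Both were among those lower in Klf5KO after scaling. Cyc1, cytochrome c1, had 165, 183 and 166 TPM in EgfrKO, 143, 152 and 152 in Klf5KO and 191, 193 and 195 in Smad4KO, against 155, 135 and 141 in WT. Cox17, a copper chaperone for complex IV, had 186, 184 and 164 TPM in EgfrKO, 84.5, 102 and 126 in Klf5KO and 247, 176 and 201 in Smad4KO, against 148, 152 and 162 in WT. Its log2 fold change in Klf5KO was -0.58 ± 0.14 (SE, adjusted p = 0.0033).

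Of 18 genes of the tricarboxylic acid cycle and its entry, 10 were higher and none lower in EgfrKO, 11 and 2 in Klf5KO, and 16 and 0 in Smad4KO as deposited. After scaling the counts were 5 and 3, 2 and 10, and 12 and 0. The shares of all genes higher and lower as deposited were 31.3% and 12% in EgfrKO, 55.2% and 11.1% in Klf5KO, and 32.2% and 17.4% in Smad4KO. After scaling the shares were 18.2% and 22.1%, 24.9% and 27.3%, and 24.8% and 25.2%. The Klf5KO counts as deposited lay near the share of all genes. Mdh2, malate dehydrogenase, averaged 316 ± 6.68 TPM in EgfrKO, 311 ± 18.5 in Klf5KO and 308 ± 6.44 in Smad4KO, against 279.5 ± 9.33 in WT (SD, n = 3). Of 19 genes of hypoxia response and glycolysis, 0 were higher and 17 lower in EgfrKO, 0 and 17 in Klf5KO, and 1 and 15 in Smad4KO. After scaling the counts were 0 and 18, 0 and 19, and 0 and 16. The shares of all genes beside these counts are those given above. Gapdh, a glycolytic enzyme, averaged 6565 ± 98.5 TPM in EgfrKO, 5675 ± 455 in Klf5KO and 5515 ± 165 in Smad4KO, against 8031 ± 519 in WT (SD, n = 3), with log2 fold changes of -0.29 ± 0.07 (SE, adjusted p = 0.0043), -0.50 ± 0.07 (SE, adjusted p = 4.5e-05) and -0.54 ± 0.07 (SE, adjusted p = 3.6e-05) in that order. All 3 comparisons share the WT libraries.

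Of 14 regulators of mitochondrial genes, 5 were higher and 0 lower in EgfrKO, 10 and 0 in Klf5KO, and 6 and 3 in Smad4KO as deposited, and 3 and 5, 3 and 2, and 2 and 5 after scaling. Of all genes as deposited, 31.3% were higher and 12% lower in EgfrKO, 55.2% and 11.1% in Klf5KO, and 32.2% and 17.4% in Smad4KO. After scaling the shares were 18.2% and 22.1%, 24.9% and 27.3%, and 24.8% and 25.2%. With 14 genes, the counts lay near these shares on both footings, so the list is not read as a result. The genes that follow are given one by one as a description. Esrra, an orphan nuclear receptor that activates genes of respiration, had 48.7, 51.3 and 47.5 TPM in EgfrKO, 44.2, 42.1 and 42.9 in Klf5KO and 58.9, 60.3 and 54.3 in Smad4KO, against 43.1, 44.6 and 46.9 in WT. Its log2 fold change was 0.36 ± 0.06 (SE, adjusted p = 0.00025) in Smad4KO as deposited and 0.25 ± 0.05 (SE, adjusted p = 0.0013) after scaling. Ppargc1b, a coactivator of Esrra, had 1.87, 2.15 and 1.84 TPM in EgfrKO, 0.223, 0.461 and 0.381 in Klf5KO and 5.48, 6.47 and 4.72 in Smad4KO, against 0.295, 0.817 and 0.571 in WT. Smad4KO was highest and EgfrKO second, with log2 fold changes of 2.08 ± 0.15 (SE, adjusted p = 7.0e-07) in Smad4KO and 0.93 ± 0.15 (SE, adjusted p = 0.00058) in EgfrKO. Its relative Ppargc1a had 0.748, 0.607 and 0.657 TPM in EgfrKO, 3.34, 2.72 and 2.52 in Klf5KO and 0.229, 0.300 and 0.348 in Smad4KO, against 0.703, 1.18 and 1.36 in WT and ran the other way, with 0.90 ± 0.15 (SE, adjusted p = 0.00022) in Klf5KO and -0.67 ± 0.15 (SE, adjusted p = 0.0025) in Smad4KO. Both coactivators are at low TPM and were chosen after their values were seen. Of the 14 regulators, Esrra and Ppargc1b were the 2 called higher in Smad4KO after scaling. The 5 called lower there were Ppargc1a (-0.75), Polg (-0.32), Nrf1 (-0.29), Pprc1 (-0.17) and Gabpa (-0.15).

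NRF1 is a transcription factor known for binding promoters of respiratory chain genes, so its motif was counted in the promoter windows of the members, from 250 bases before to 50 bases after each start site in RefSeq for GRCm38.p6. All 83 members matched a RefSeq gene, and 68 had 1 or more windows, 73 in all. The NRF1 consensus, on either strand, was in 18 of those windows, or 24.7%, which belong to 17 members. It was in 4.60% of all 32851 windows and in 9.41% of the windows of tested genes. The ETS motif CCGGAAG was in 21.9% of the members' windows and 16.9% of those of tested genes, and the YY1 motif AAGATGG in 15.1% and 7.12%. Stretches before the start site that hold the NRF1 letters are shown for 4 members as the parts that overlap no annotated exon, on the minus strand except for Ndufa11 on the plus strand, 5′ to 3′, with the letters that match the consensus in capitals.
Cox6a1: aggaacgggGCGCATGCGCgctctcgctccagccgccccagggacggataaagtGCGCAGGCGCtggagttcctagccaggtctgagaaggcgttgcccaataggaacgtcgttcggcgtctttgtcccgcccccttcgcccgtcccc
Atp5h: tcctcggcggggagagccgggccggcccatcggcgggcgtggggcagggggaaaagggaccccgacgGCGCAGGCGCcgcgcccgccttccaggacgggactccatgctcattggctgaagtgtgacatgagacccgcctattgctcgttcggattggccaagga
Ndufb4: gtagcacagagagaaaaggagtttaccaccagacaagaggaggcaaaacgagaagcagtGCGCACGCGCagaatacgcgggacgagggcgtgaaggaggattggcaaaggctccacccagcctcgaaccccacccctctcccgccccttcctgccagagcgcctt
Ndufa11: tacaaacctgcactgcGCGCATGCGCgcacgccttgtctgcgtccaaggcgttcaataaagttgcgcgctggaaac
They lie at chr5:115348982-115349129 for Cox6a1, chr11:115419963-115420127 for Atp5h, chr16:37654454-37654618 for Ndufb4 and chr17:56717686-56717761 for Ndufa11. The stretch of Cox6a1 holds 2 matches and the others 1 each. Apart from Cox6a1, these genes fall outside the naming rule and were chosen for their sequence.

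Median fold changes of members with and without the motif are given as a description, with no test. In Smad4KO the 17 with the motif had a median log2 fold change of 0.43, with 11 higher. The 48 tested members with a window and no motif had 0.36, with 36 higher, where 32.2% of all genes were higher. In EgfrKO the medians were 0.25 and 0.26, and in Klf5KO -0.10 and -0.07. Cox6a1, a structural complex IV subunit with the motif, averaged 1007 ± 27.5 TPM in EgfrKO, 763 ± 56.6 in Klf5KO and 1047 ± 62.8 in Smad4KO, against 818 ± 33.6 in WT (SD, n = 3), with a log2 fold change of 0.35 ± 0.06 (SE, adjusted p = 0.00054) in Smad4KO. Atp5h, a stalk subunit of the ATP synthase with the motif, averaged 675 ± 28.5 TPM in EgfrKO, 465 ± 28.4 in Klf5KO and 640.4 ± 25.6 in Smad4KO, against 484 ± 3.30 in WT (SD, n = 3), with 0.48 ± 0.05 (SE, adjusted p = 2.9e-05) in EgfrKO. Ndufb4, of the complex I membrane arm, averaged 218 ± 16.2 TPM in EgfrKO, 146 ± 18.0 in Klf5KO and 225 ± 15.5 in Smad4KO, against 178 ± 21.9 in WT (SD, n = 3), with -0.29 ± 0.11 (SE, adjusted p = 0.032) in Klf5KO. A match is a description of letters and not evidence of binding. Nrf1 itself had 17.3, 18.8 and 17.1 TPM in EgfrKO, 27.5, 24.2 and 25.7 in Klf5KO and 17.3, 17.8 and 17.0 in Smad4KO, against 19.4, 20.2 and 19.9 in WT, with a log2 fold change of 0.36 ± 0.06 (SE, adjusted p = 0.00037) in Klf5KO that after scaling was 0.02 ± 0.05 (SE, adjusted p = 0.73). In Smad4KO it was -0.18 ± 0.06 (SE, limma adjusted p = 0.031) as deposited and -0.29 ± 0.05 (SE, adjusted p = 0.00079) after scaling. In EgfrKO it was -0.15 ± 0.06 (SE, limma adjusted p = 0.071) as deposited and -0.30 ± 0.05 (SE, adjusted p = 0.00105) after scaling.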

How the data were processed

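RNA from sorted mouse tumour cells was sequenced in 12 libraries, 3 for each of 4 genotypes. The values are gene TPM as the authors deposited them, made with Salmon and mm10 per the submitters' processing notes. The Salmon version and the annotation were not given in the sources used here. TPM keeps no read depth, so no counting interval could be given. The 13662 genes that reached 1 TPM in 3 or more libraries were tested. Values were taken as log2(TPM + 1), which understates the change of low genes, and fitted with limma 3.58.1 in R 4.3.3, in 1 model over the 12 libraries with a trend in the spread. Benjamini-Hochberg adjustment ran over all genes tested, with a threshold of 0.05, and the fit was tested on simulated data. Fold changes are the first group over the second, on the log2(TPM + 1) scale.

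Members, lists and tests were chosen with earlier results of these data known. The members named were the 2 with the highest mean TPM in each complex, all Sdh genes, up to 2 per direction, complex and contrast with WT by size of log2 fold change among those called, the isoform pairs, and up to 4 per contrast whose call ended or whose sign turned after median-of-ratios scaling. Of other lists, genes among the 3 with the highest mean TPM were named. Atp5c1, Atp5d, Atp5g3, Atp5h, Ndufa11, Ndufb4, Uqcrfs1, Gabpa, Nrf1, Polg, Ppargc1a and Ppargc1b fall outside this rule and were chosen after values were seen. The same holds for Cdh1, Cldn4, Epcam, Minos1, Ncr1 and Ptprc. Gene coordinates and transcript lengths came from GENCODE vM21 (GRCm38), and shared 31-base stretches were counted in its transcripts. Of the 83 members, 75 had under 10% of these stretches in another gene of the table. With genes outside the table counted too, the share was 49.25% for Atp5o, 40.22% for Atp5g2, 34.79% for Uqcrb and 25.39% for Atp5h. Among complex I genes it was 34.45% for Ndufb6, 33.17% for Ndufa13, 29.04% for Ndufb11, 26.47% for Ndufs5 and 25.43% for Ndufs3. The levels of these genes are uncertain as well. Promoter sequences are from RefSeq for GRCm38.p6. Alternatives were another pseudocount, other filters, other scalings, a fit with no trend, a fit of 2 groups, a block on replicate number, and each library left out in turn.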

Additional observations from a re-analysis of the deposited data

How the results depend on the processing

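Scaling was the choice that moved the counts most. After median-of-ratios scaling, EgfrKO against WT had 17 members higher and 3 lower with a median of 0.090, Klf5KO had 0 higher and 65 lower with a median of -0.42, and Smad4KO had 1 lower with a median of 0.25. Between knockouts, scaling gave 1 lower for EgfrKO against Klf5KO, 1 higher for EgfrKO against Smad4KO and 0 higher for Klf5KO against Smad4KO. Quantile normalization gave 2 lower and a median of 0.19 in EgfrKO, and 4 higher, 41 lower and a median of -0.21 in Klf5KO. Rescaling without the 20 most abundant genes gave 2 lower and a median of 0.20 in EgfrKO. Rescaling without ribosomal protein genes and small RNA models gave 2 lower in EgfrKO, and 5 higher and 40 lower in Klf5KO. With no filter on low values, 0 were lower in EgfrKO, and a fit of the 2 groups alone gave 2 lower in Smad4KO. After median-of-ratios scaling 27 of the 77 members changed sign in Klf5KO against WT. Among members named by the rule and called on at least 1 of the 2 footings, these were Atp5a1 (-0.11), Atp5g1 (-0.16), Atp5o (-0.30), Ndufs1 (-0.078), Ndufv2 (-0.20), Uqcrb (-0.34) and Uqcrc1 (-0.18), and under quantile normalization Ndufs1 (-0.049) and Ndufv2 (-0.085) turned. Atp5d, called higher as deposited, and Atp5c1, not called, were called lower after scaling, at -0.20 and -0.23. The shift of all genes under scaling is part of each of these values, and no other cause was tested. With each library left out in turn, the number higher was 37 to 44 in EgfrKO, 7 to 10 in Klf5KO and 50 to 58 in Smad4KO, the number lower was 0 to 2 in EgfrKO, 16 to 27 in Klf5KO and 0 in Smad4KO, and the medians were 0.22 to 0.26, -0.11 to -0.03 and 0.32 to 0.41. Leaving out libraries after scaling, an alternative chosen after seeing the data, gave 8 to 14 higher in EgfrKO and 34 to 49 in Smad4KO. Of 1773 values of named members under alternatives, 1600 stayed on their side of the threshold, of which 43 changed sign while called under neither setting. Another 136 no longer passed, 28 newly passed and 9 turned while called under at least 1 setting. The replicate numbers did not pair the libraries, with correlations of same-numbered deviations of -0.149 to 0.116. A replicate block gave 45 higher and 1 lower in EgfrKO, 8 and 20 in Klf5KO and 55 and 0 in Smad4KO. The depth of the libraries is unknown, and 3 libraries a group limit what the tests can show.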
